A study of Schizosaccharomyces pombe with 10 samples.

Results

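The 8 genes described here make or use trehalose or glycerol in the fission yeast Schizosaccharomyces pombe, except tms1, which is annotated as a hexitol dehydrogenase. They were chosen by identifier from a table of 7017 genes. They are tps1 (SPAC328.03), tps2 (SPAC3G6.09c), ntp1 (SPBC660.07), gpd1 (SPBC215.05), gpd2 (SPAC23D3.04c), gld1 (SPAC13F5.03c), dak1 (SPAC22A12.11) and tms1 (SPBC1773.05c). SPAC3G6.09c has also been listed as tpp1, but the RefSeq annotation gives the name tpp1 to SPAC19G12.15c, so SPAC3G6.09c is called tps2 here and SPAC19G12.15c is given with the other genes of the pathway. All 8 genes had counts in every library and passed the filter on low counts of the tests. The lowest single value was 27 counts, for gld1.

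PolyA RNA was sequenced from exponential cultures in minimal medium, with or without exposure to 1 mM H2O2 for 15 min. There were 5 strains, each with 1 library per treatment. WT carried wild-type sty1 and wild-type Atf1. STY was labelled as a sty1 deletion with wild-type Atf1. HA, 10D and 10M were labelled as sty1 deletions that carry, respectively, HA-Atf1, the phosphomimicking HA-Atf1.10D and the unphosphorylatable HA-Atf1.10M. The labels name no promoter or integration site for these Atf1 forms, and no number of clones.

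Trehalose is a disaccharide that yeasts store and that protects proteins and membranes under stress. Trehalose-6-phosphate synthase makes its phosphorylated precursor from UDP-glucose and glucose 6-phosphate, a phosphatase removes the phosphate, and neutral trehalase splits the sugar into glucose. Glycerol is made from dihydroxyacetone phosphate, a glycolytic intermediate, by way of glycerol-3-phosphate dehydrogenase, and is the main compatible solute of osmotic stress. In fission yeast, glycerol is taken back into metabolism by glycerol dehydrogenase and dihydroxyacetone kinase. Sty1 is the stress-activated MAP kinase of this yeast, and Atf1 is the bZIP transcription factor that it phosphorylates. The series compared transcription, at rest and after H2O2, between Atf1 forms that mimic or prevent that phosphorylation.

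The sty1 transcript (SPAC24B11.06c) stood at 266.8 CPM without and 305.6 CPM with treatment in WT, against 8.93 and 9.12 CPM in STY. CPM is the usual count rate of a gene on library totals scaled by TMM, so a change in the total RNA of a cell cannot be told apart from it. The libraries labelled HA, 10D and 10M held 101.2 to 129.2 CPM of sty1, so their counts do not match a deletion, and each is named below by its label. Library totals ran from 9178795 to 26503471 counts, with those of 10D and 10M the deepest. No label names a batch, so a batch that follows strain and the strain itself cannot be told apart. The treatment labels of 10D were set against the other 4 strains. Of 13 genes at least 2-fold higher in the treated library of each of those strains, 12 were also higher in treated 10D, 8 of them by at least 2-fold. Of 33 at least 2-fold lower, 32 were lower in treated 10D, 18 of them by at least 2-fold.

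Atf1 binds DNA elements of the CRE type, which hold the letters TGACGT. The 300 bases before 3 annotated gene starts are shown, because gpd1 and ntp1 were the members with this element there, and because gpd2 encodes the same activity as gpd1 without it. They were read from the RefSeq ASM294v3 genome, 5′ to 3′ on the strand of each gene, with TGACGT or its reverse complement ACGTCA in capitals. The authors' genome build is not given in the sources used here, and no count was placed by these coordinates.
gpd1, plus strand, chrII:4035266-4035565: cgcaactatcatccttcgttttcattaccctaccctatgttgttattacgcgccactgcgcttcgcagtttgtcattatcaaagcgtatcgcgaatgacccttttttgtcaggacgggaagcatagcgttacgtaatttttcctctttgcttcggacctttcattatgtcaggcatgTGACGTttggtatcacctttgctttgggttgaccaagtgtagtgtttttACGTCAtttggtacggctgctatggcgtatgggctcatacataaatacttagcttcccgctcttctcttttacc
ntp1, plus strand, chrII:206281-206580: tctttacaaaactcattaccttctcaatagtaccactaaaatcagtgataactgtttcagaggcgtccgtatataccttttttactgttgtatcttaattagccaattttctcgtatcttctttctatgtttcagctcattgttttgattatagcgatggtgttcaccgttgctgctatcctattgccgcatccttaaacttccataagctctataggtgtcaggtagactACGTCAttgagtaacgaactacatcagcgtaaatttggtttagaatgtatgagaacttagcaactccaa
gpd2, minus strand, chrI:4343928-4344227: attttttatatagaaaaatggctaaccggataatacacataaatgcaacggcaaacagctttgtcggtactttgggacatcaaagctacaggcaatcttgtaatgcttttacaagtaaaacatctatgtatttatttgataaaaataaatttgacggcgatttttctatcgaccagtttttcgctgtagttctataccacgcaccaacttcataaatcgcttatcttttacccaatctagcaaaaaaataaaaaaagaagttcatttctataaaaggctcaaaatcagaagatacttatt
The gpd1 window held the element on both strands, at 118 to 123 bases before the start on the gene's own strand and at 69 to 74 bases on the opposite strand. The ntp1 window held it on the opposite strand, at 64 to 69 bases before the start.

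Both strands of the 300 bases before each start were searched for 6 motifs. TGACGT was in 2 of 8 member windows and in 6.03% of 5112 protein-coding genes' windows. The longer ATGACGT, which contains TGACGT, was in the same 2 members and in 1.60% of all windows. The palindrome TGACGTCA, which also contains it, was in no member and in 0.313% of all windows. CCCCTC, a stress element bound by zinc-finger factors, was in no member and 1.94% of all windows, and AGGGG, the stress element of budding yeast, whose reverse complement overlaps it, in no member and 10.0%. The heat-shock element was in no member and 0.489% of all windows. Over 1000 bases, TGACGT was again found before ntp1 and gpd1 alone among the members, CCCCTC before gld1, AGGGG before gpd2 and gld1, and the heat-shock element before tms1. In that longer window their shares of all genes were 14.9%, 7.51%, 33.4% and 1.76%. These matches are descriptions of the letters and show no binding. The 300-base windows of tps1, gld1, dak1 and tms1 lacked TGACGT. These genes were nevertheless at least 2-fold lower in treated than in untreated 10D, as gpd1 and ntp1 were. The tps2 window also lacked it, and tps2 was past 2-fold in no strain. Whether the element bears on these levels was not tested.

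**Figure D1:**
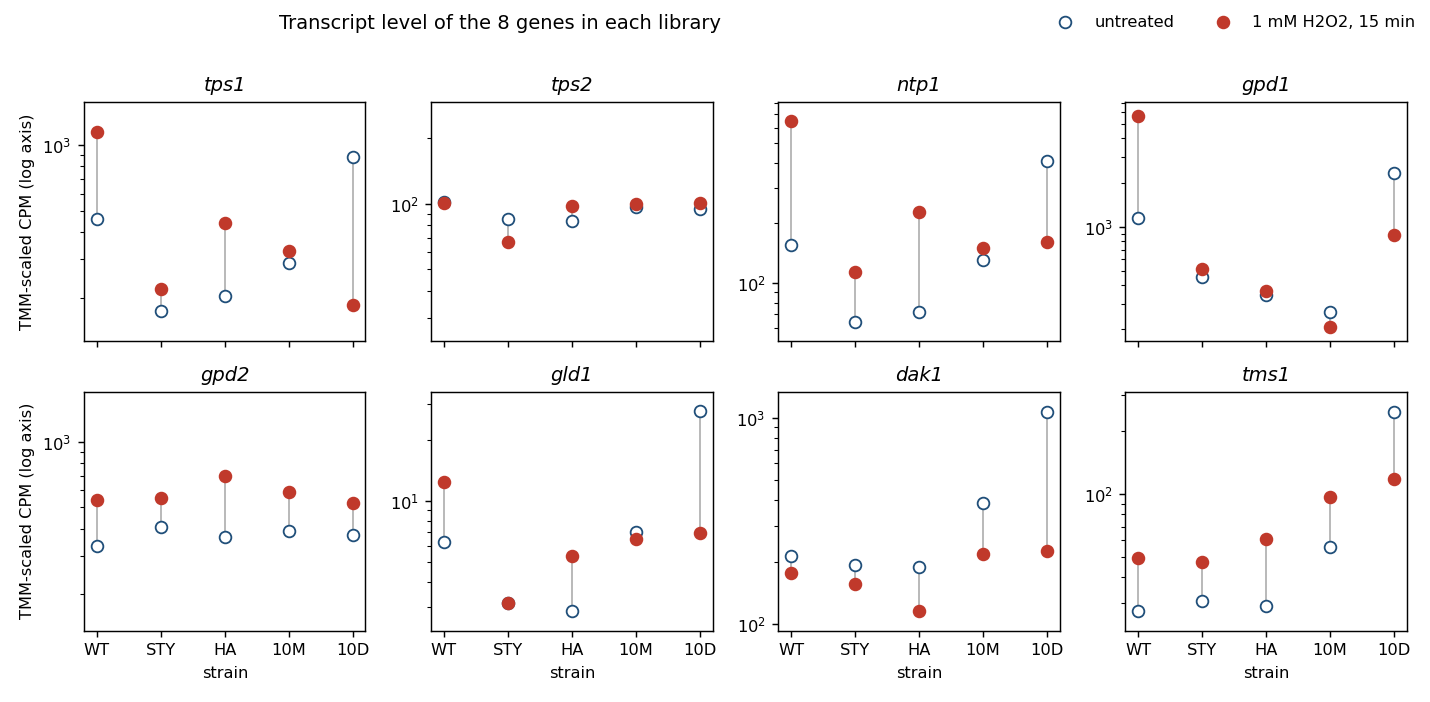
Level of each of the 8 genes in every library (TMM-scaled CPM, log axis with its own range in each panel; 1 library per point, strains on the x axis). The open circle of 10D is the highest untreated value in 6 panels, the filled circle of WT is the highest value for tps1, ntp1 and gpd1, and tps2 and gpd2 vary least.

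The trehalose genes tps1 and ntp1 had their highest level in treated WT, and in 10D they were high without treatment and lower after it. The level of tps1, the synthase that commits glucose to trehalose, was 456.8 CPM untreated and 1150 CPM treated for WT, 173.1 and 219.4 for STY, 204.6 and 441.3 for HA, 289.5 and 326.1 for 10M, and 887.5 and 185.1 for 10D. The treated library was thus the higher in 4 strains and the lower in 10D, whose untreated level was above that of every library other than treated WT. The log2 ratio of treated to untreated tps1 was 1.33 for WT (95% interval 1.28 to 1.38), 1.11 for HA (1.03 to 1.19), 0.34 for STY, 0.17 for 10M and -2.26 for 10D (-2.31 to -2.21). These exact binomial intervals cover counting error alone, and PCR copies of a molecule are not independent counts, so they say nothing of repeat cultures.

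Neutral trehalase, encoded by ntp1, breaks trehalose down to glucose. The level of ntp1 was 155.2 CPM untreated and 643.6 CPM treated for WT, 64.1 and 113.5 for STY, 72.0 and 226.2 for HA, 131.3 and 150.6 for 10M, and 409.1 and 161.5 for 10D. As for tps1, treated WT was highest and untreated 10D next, and the treated library was the lower in 10D alone. Its log2 ratio of treated to untreated was 2.05 for WT (1.97 to 2.13), 1.65 for HA (1.53 to 1.78), 0.82 for STY, 0.20 for 10M and -1.34 for 10D (-1.40 to -1.28). Across the 10 libraries the log2 levels of tps1 and ntp1 had a Pearson correlation of 0.92, a description in which both genes share each library's scaling. Per kilobase of exon, tps1 was 1.63 to 4.18 times the level of ntp1, and it was the higher in all 10 libraries.

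The tps2 gene, which RefSeq annotates as a trehalose-phosphate synthase, had nearly the same level throughout. Its lowest value was 67.1 CPM, in treated STY, its median 97.3 CPM and its highest 102.3 CPM, in untreated WT, a ratio of highest to lowest of 1.52. Its log2 ratio of treated to untreated lay between -0.35, in STY, and 0.23, in HA. Because tps1 varied and tps2 varied little, the level of tps1 relative to tps2 per kilobase was 5.92 and 15.1 in untreated and treated WT and 12.4 and 2.44 in 10D.

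Of the 2 glycerol-3-phosphate dehydrogenases, which reduce dihydroxyacetone phosphate on the way to glycerol, gpd1 differed most between libraries of all 8 genes and gpd2 differed little. The level of gpd1 was 1152 CPM untreated and 5647 CPM treated for WT, 454.1 and 512.8 for STY, 343.5 and 363.3 for HA, 263.2 and 207.7 for 10M, and 2334 and 883.5 for 10D. Both libraries of STY, HA and 10M were below both libraries of WT and of 10D, and the highest level was 27.2 times the lowest. The log2 ratio of treated to untreated gpd1 was 2.29 for WT (2.27 to 2.32), 0.18 for STY, 0.08 for HA, -0.34 for 10M and -1.40 for 10D (-1.43 to -1.38). On the TMM scale HA thus had a ratio past 2-fold for tps1 and ntp1 but not for gpd1. With libraries scaled by total counts, ntp1 but not tps1 stayed past 2-fold in HA.

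The level of gpd2 was 332.6 CPM untreated and 541.9 CPM treated for WT, 407.5 and 550.4 for STY, 364.7 and 695.0 for HA, 390.1 and 589.1 for 10M, and 373.6 and 521.6 for 10D. Every treated library was above every untreated library, in 10D as in the other strains. Its log2 ratio of treated to untreated was 0.70 for WT, 0.43 for STY, 0.93 for HA, 0.59 for 10M and 0.48 for 10D. None of these ratios reached 2-fold.

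Set against each other per kilobase of exon, the 2 isoforms did not keep one order across strains. The level of gpd1 over that of gpd2 was 3.31 without and 9.96 with H2O2 for WT, and 5.97 without and 1.62 with it for 10D. For STY it was 1.06 and 0.890, for HA 0.900 and 0.499, and for 10M 0.645 and 0.337. Treated cells had the higher ratio in WT and the lower ratio in the other 4 strains.

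**Figure D2:**
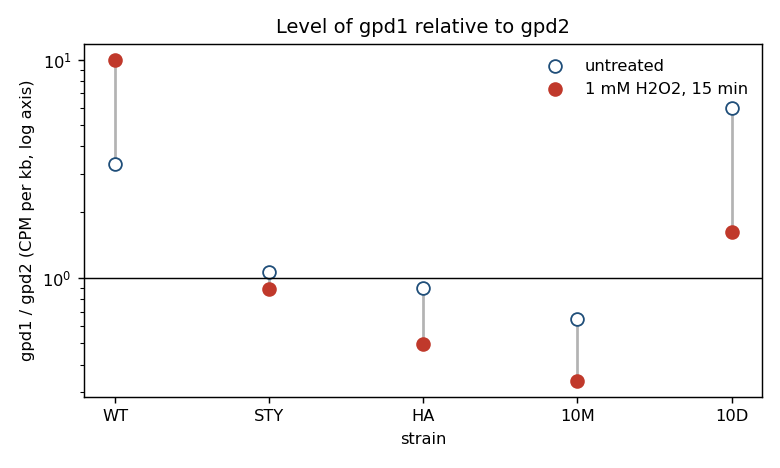
Level of gpd1 divided by that of gpd2, each as CPM per kilobase of exon, by strain and treatment (log axis; 1 library per point, and the line marks a ratio of 1). WT is at 3.31 without and 9.96 with H2O2 and 10D at 5.97 and 1.62, while HA and 10M lie below 1 in both libraries and STY at 1.06 and 0.890.

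The genes of glycerol use, gld1 and dak1, were highest in untreated 10D. The level of gld1, the glycerol dehydrogenase that oxidises glycerol to dihydroxyacetone, was 6.31 CPM untreated and 12.4 CPM treated for WT, 3.15 and 3.15 for STY, 2.87 and 5.35 for HA, 7.02 and 6.47 for 10M, and 27.6 and 6.99 for 10D. Per kilobase of exon it was the least abundant member in every library, and its intervals were the widest. Its log2 ratio of treated to untreated was 0.96 for WT (0.53 to 1.43), 0.86 for HA, 0.00 for STY, -0.12 for 10M and -1.96 for 10D (-2.24 to -1.73).

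Dihydroxyacetone kinase, encoded by dak1, returns dihydroxyacetone to glycolysis. The level of dak1 was 214.5 CPM untreated and 176.6 CPM treated for WT, 193.0 and 156.3 for STY, 189.9 and 116.3 for HA, 384.7 and 219.6 for 10M, and 1069 and 226.8 for 10D. Here the treated library was the lower in all 5 strains, and the difference was largest in 10D. The log2 ratio of treated to untreated was -0.28 for WT, -0.30 for STY, -0.71 for HA, -0.81 for 10M and -2.24 for 10D (-2.28 to -2.19). Untreated 10D stood 2.78-fold above the next library, untreated 10M.

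The tms1 gene is annotated as a hexitol dehydrogenase, an enzyme of sugar alcohols. The level of tms1 was 27.7 CPM untreated and 49.4 CPM treated for WT, 30.8 and 47.5 for STY, 29.1 and 61.1 for HA, 56.0 and 97.3 for 10M, and 248.3 and 118.6 for 10D. Both 10D libraries were above all the others, and both 10M libraries were above their counterparts in WT, STY and HA. Its log2 ratio of treated to untreated was 0.83 for WT, 0.62 for STY, 1.06 for HA (0.86 to 1.28), 0.80 for 10M and -1.06 for 10D.

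Within each strain, a gene was counted as apart when treated and untreated libraries differed at least 2-fold and the counting interval excluded no difference. In WT, 3 of 8 members were higher after H2O2 (tps1, ntp1 and gpd1) and none lower, where 9.43% of the 4983 genes averaging 10 CPM or more were higher and 6.42% lower. Of the 8 members, 7 passed that mean, gld1 being the exception. In HA, 3 of 8 were higher (tps1, ntp1 and tms1) and none lower, against 4.11% and 7.41% of genes, but 1 was higher when libraries were scaled by total counts, where 3.29% of genes were. In 10D, none was higher and 6 of 8 were lower (tps1, ntp1, gpd1, gld1, dak1 and tms1), against 7.32% and 7.22% of genes. In STY none of the 8 was apart, with 1.14% of genes higher and 6.74% lower. In 10M none was apart either, with 2.99% higher and 3.29% lower. The median log2 ratio over the 8 members was 0.90 for WT, 0.26 for STY, 0.90 for HA, 0.11 for 10M and -1.37 for 10D, beside medians over all genes between -0.09 and -0.03. Scaling by total counts moved the medians over all genes to between -0.24 and -0.11. Small member ratios changed sign with it, among them gpd1 in HA, to -0.07, and tps2 in 10M, to -0.02.

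**Figure D3:**
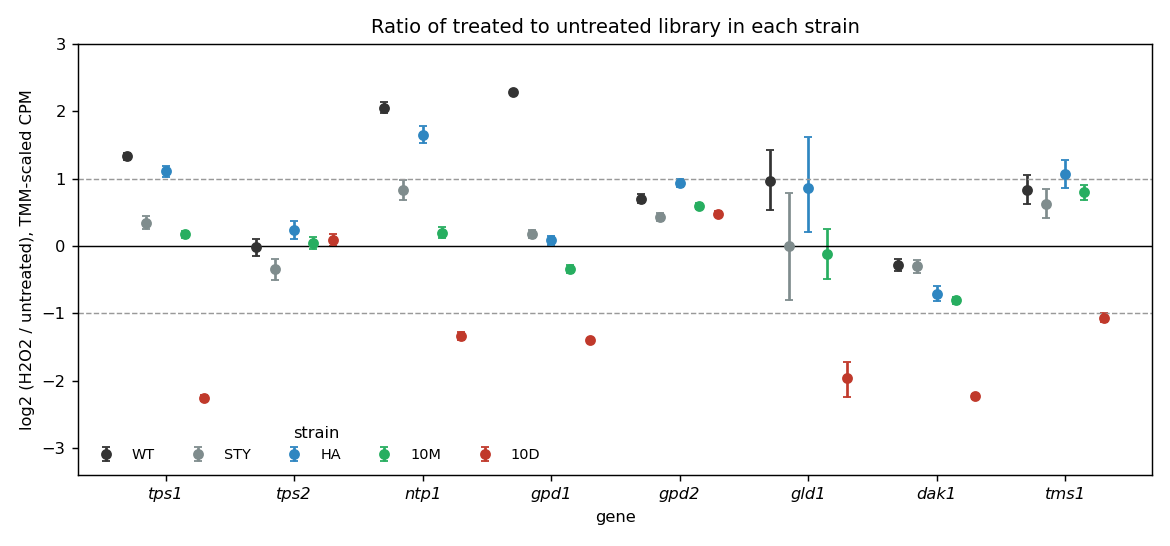
Log2 ratio of treated to untreated TMM-scaled CPM for each gene and strain (1 library per treatment; bars are 95% binomial intervals for counting error, and dashed lines mark 2-fold). In 10D tps1, ntp1, gpd1, gld1, dak1 and tms1 lie below -1, whereas gpd2 is between 0.43 and 0.93 in all 5 strains.

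Tests across strains were run with edgeR's quasi-likelihood method with Benjamini-Hochberg adjustment over all genes tested, and a gene was called at an adjusted p below 0.05. STY, HA and 10M, the strains labelled as sty1 deletions without a phosphomimicking Atf1, formed a pool of 3 whose spread was the error. The lone WT or 10D library of each treatment was assumed to vary as they did. Nothing in the labels speaks of repeat cultures, so each p-value measures spread between strains.

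After H2O2, WT had more transcript of 3 of the 8 members than the pool, tps1, ntp1 and gpd1, where 37.9% of genes were called, 21.5% higher and 16.4% lower. The number of members called was thus close to the share of all genes called in either direction. The gpd1 level was 5647 CPM in treated WT and 361 ± 153 CPM in the treated pool (SD, n = 3), a log2 difference of 3.97 ± 0.44 (SE, edgeR adjusted p = 0.00141), or 15.6-fold. Treated ntp1 was at 643.6 CPM in WT and 163 ± 57.4 CPM in the pool (SD, n = 3), with a log2 difference of 1.98 ± 0.44 (SE, edgeR adjusted p = 0.0143). Treated tps1 was at 1150 CPM in WT and 329 ± 111 CPM in the pool (SD, n = 3), with a log2 difference of 1.81 ± 0.38 (SE, edgeR adjusted p = 0.0111). These 3 calls held under all 6 alternatives, although the calls over all genes moved from 2343 to 716 without HA. The gld1 difference was 1.30 ± 0.57 (edgeR adjusted p = 0.111), and it was called only when 10M was left out. In that fit 4 members were called, where 2658 genes were. The adjusted p of gld1 ran from 0.0342 to 0.221 over the alternatives. The other 4 members had log2 differences between -0.48 and 0.19.

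Without treatment, none of the 8 members was called between WT and the pool by edgeR, against 0.0648% of all genes, or 4 genes, which became 2 without STY, 0 without HA and 42 without 10M. At an unadjusted p below 0.05 there were 2 members, where 431 genes were, and DESeq2 called 1, gpd1, where it called 66 genes. Untreated gpd1 was at 1152 CPM in WT and 354 ± 95.8 CPM in the pool (SD, n = 3), a log2 difference of 1.70 ± 0.45 (SE, edgeR adjusted p = 0.438), and its adjusted p ran from 0.0246 to 1.00 over the alternatives. Untreated tps1 differed by 1.04 ± 0.39 on the log2 scale (edgeR adjusted p = 0.644).

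In untreated cells, 10D had more transcript than the pool of 3 of the 8 members, gpd1, tms1 and tps1, and the values of ntp1, gld1 and dak1 were of like size without being called. Over all genes, 2.67% were called and 2.32% called higher. Untreated gpd1 was at 2334 CPM in 10D, with a log2 difference from the pool of 2.72 ± 0.44 (SE, edgeR adjusted p = 0.0236). Untreated tms1 was at 248.3 CPM in 10D and 38.6 ± 15.0 CPM in the pool (SD, n = 3), a log2 difference of 2.68 ± 0.43 (edgeR adjusted p = 0.0230). Untreated tps1 was at 887.5 CPM in 10D and 222 ± 60.2 CPM in the pool (SD, n = 3), a log2 difference of 1.996 ± 0.38 (edgeR adjusted p = 0.0437).

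Of the 5 members not called in that comparison, ntp1, gld1 and dak1 were close to the threshold, and tps2 and gpd2 were not. The log2 difference was 2.20 ± 0.44 for ntp1 (edgeR adjusted p = 0.0540), 2.64 ± 0.54 for gld1 (adjusted p = 0.0553) and 2.06 ± 0.44 for dak1 (adjusted p = 0.0621). The number of members called depended on which pooled strain was present: it was 0 without STY, 0 without HA and 6 without 10M, and DESeq2 called 6. Over all genes the corresponding counts were 48, 25, 430 and, by DESeq2, 402, beside 165 by edgeR with all strains. In every one of these fits the 6 members were higher in 10D, and tps2 and gpd2 differed by 0.10 and -0.05 on the log2 scale with all strains.

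After H2O2, no member was called between 10D and the pool by edgeR, although 31.0% of genes were, 18.6% higher and 12.4% lower. At an unadjusted p below 0.05 there was 1 member, gpd1, where 2797 genes were, and DESeq2 called it, where it called 2163 genes. Treated gpd1 was at 883.5 CPM in 10D, a log2 difference from the pool of 1.29 ± 0.45 (SE, edgeR adjusted p = 0.0678, with 0.0233 to 0.219 over the alternatives). Treated tps1 was at 185.1 CPM in 10D and lay below each of the pooled strains, with a log2 difference of -0.83 ± 0.43 (adjusted p = 0.176). Without STY 1 member was called (gpd1), without HA none, and without 10M 3 (gpd1, dak1 and tms1). Calls over all genes were 1914 with all strains and 1264, 420 and 2406 in those fits.

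**Figure D4:**
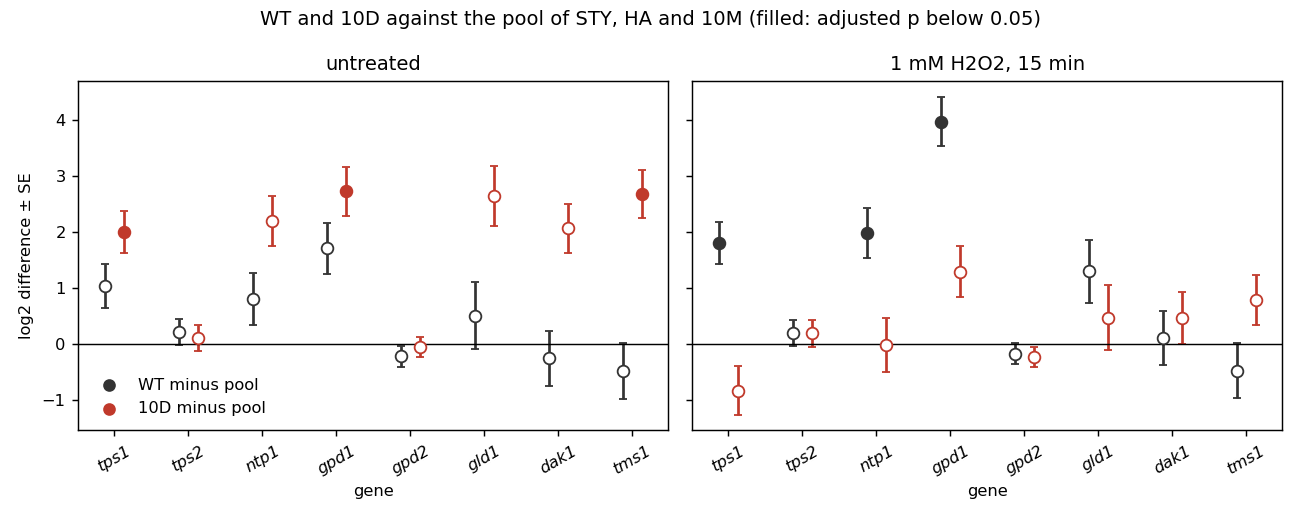
Log2 difference of WT (black) and of 10D (red) from the pool of STY, HA and 10M for each gene, untreated on the left and after H2O2 on the right (bars are the SE, and filled points have an edgeR adjusted p below 0.05). WT is called for tps1, ntp1 and gpd1 after H2O2, and 10D for tps1, gpd1 and tms1 without treatment. Both series share the pool.

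The difference between responses was tested directly, in a fit of 6 means (WT, 10D and the pool by treatment). That fit did not pair the untreated and treated libraries of a strain. The tps1 response was lower in 10D than in the pool by edgeR, with a log2 difference of -2.83 ± 0.60 (adjusted p = 0.0473), and it was the only one of 8 members called, where 4.87% of genes were called and 1.93% called lower. That call was lost when any pooled strain was left out. No member was called without STY or HA, dak1 and tms1 were called without 10M, and over all genes the 301 calls became 3, 0 and 485. DESeq2 called 3 members (tps1, ntp1 and tms1), where 744 of 6176 genes were called. An edgeR fit with strain as a block paired the libraries of each strain. It called 6 members, all but tps2 and gpd2, where 853 genes were called.

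The WT response differed from that of the pool for no member by edgeR, where 5.44% of genes, or 336, were called with all strains, 0 without STY, 0 without HA and 650 without 10M. Only gpd1 had an unadjusted p below 0.05, with a log2 difference of 2.26 ± 0.70 (adjusted p = 0.101), where 1628 genes had one. It was called by DESeq2 and by edgeR with strain as a block, where 807 and 1059 genes were called, and without 10M. Between the 10D and WT responses, 0.0810% of genes and no member were called by edgeR, and the 5 genes became 0, 1 and 30 without STY, HA and 10M. There 4 members had an unadjusted p below 0.05, DESeq2 called 3 (tps1, ntp1 and gpd1) and the fit with strain as a block 4 (tps1, gpd1, dak1 and tms1). The counts over all genes were 345, 79 and 107 in that order. The log2 differences between these responses were -3.70 ± 0.86 for gpd1 (adjusted p = 0.372), -3.59 ± 0.73 for tps1 (adjusted p = 0.254) and -3.39 ± 0.86 for ntp1 (adjusted p = 0.445). These are single libraries on both sides. The comparisons with the pool and with WT share libraries and are not separate evidence.

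Over the 5 strains taken as repeats, 1 of the 8 members rose after H2O2, gpd2, by 0.63 ± 0.12 on the log2 scale (edgeR adjusted p = 0.0436), where 4.90% of genes were called. When any 1 strain was left out, WT, STY, HA, 10D or 10M, neither gpd2 nor another member was called, and calls over all genes went from 299 to between 0 and 6. The gpd2 difference was 0.57 to 0.67 over all alternatives. The dak1 difference was -0.85 ± 0.30 (edgeR adjusted p = 0.120) and was called by DESeq2 alone, with adjusted p-values from 0.0424 to 0.266 over the alternatives. DESeq2 called 1141 genes there.

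Single libraries of different strains were also set side by side, with the 2-fold rule and no test. Untreated 10D had 5 of 8 members at least 2-fold above untreated WT, where 4.48% of genes were higher and 2.21% lower. Their log2 ratios were 3.16 for tms1, 2.32 for dak1, 2.11 for gld1, 1.40 for ntp1 and 1.02 for gpd1, and that of tps1 was 0.96. In treated cells the order was turned for tps1, ntp1 and gpd1, and for gld1 short of 2-fold, at -0.815 (interval -1.174 to -0.476). The other isoforms differed little, tps2 by -0.11 in untreated and -0.00 in treated cells, and gpd2 by 0.168 and -0.055. Treated 10D was below treated WT by log2 ratios of -2.68 for gpd1, -2.63 for tps1 and -1.99 for ntp1, 3 of 8 members where 3.95% of genes were lower, while tms1 was above it by 1.26, where 2.67% were higher.

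Against untreated 10M, untreated 10D had 6 of 8 members higher, where 4.60% of genes were higher and 1.51% lower. The log2 ratios of these 6 ran from 1.47 for dak1 to 3.15 for gpd1. After H2O2 gpd1 was the only member still apart, by 2.09, where 11.6% of genes were higher and 6.36% lower. The libraries with the phosphomimicking and the unphosphorylatable form were thus apart in 6 of 8 members at rest. After treatment 1 of 8 was higher, close to the 11.6% of all genes, so that count is not particular to the members.

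The untreated libraries of STY, HA and 10M were also set against untreated WT. In STY 3 of 8 were at least 2-fold lower and none higher, tps1 by -1.40, gpd1 by -1.34 and ntp1 by -1.27 on the log2 scale, where 1.73% of genes were higher and 3.65% lower. In HA 4 of 8 were lower, with gpd1 at -1.75, tps1 at -1.16, ntp1 at -1.11 and gld1 at -1.10, where 1.22% of genes were higher and 3.09% lower. In 10M gpd1 was lower, by -2.13, and tms1 higher, by 1.01, where 1.36% of genes were higher and 2.49% lower.

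The treated libraries were farther apart, over all genes as well as for gpd1. Against treated WT, tps1, ntp1 and gpd1 were lower in each of STY, HA and 10M, and gld1 also in STY and HA, where 19.6%, 18.1% and 14.1% of genes were lower. The log2 ratios of gpd1 were -3.46 in STY, -3.96 in HA and -4.76 in 10M. No member was higher than in treated WT by 2-fold, where 11.2%, 9.83% and 7.87% of genes were higher in those strains.

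HA and 10D are labelled as strains that differ in the form of HA-Atf1, the latter phosphomimicking. Untreated 10D had 6 of 8 members at least 2-fold above untreated HA, where 6.92% of genes were higher and 2.83% lower, with log2 ratios from 2.12 for tps1 to 3.20 for gld1. In treated cells gpd1 was higher in 10D by 1.28 and tps1 lower by -1.25, where 16.6% of genes were higher and 7.79% lower.

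Untreated HA and STY differed at least 2-fold in none of the 8 members, where 0.622% of genes were higher and 0.301% lower in HA. After H2O2, tps1 was higher in HA by a log2 ratio of 1.01 and ntp1 by 0.99, just short of 2-fold, where 3.65% of genes were higher and 0.682% lower. Untreated 10M had gld1 and dak1 above HA, by 1.25 and 1.02, where 2.49% of genes were higher and 1.36% lower, and the treated libraries were apart in no member, where 2.21% of genes were higher and 0.963% lower.

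The level of atf1 itself (SPBC29B5.01) also differed between these libraries. It was 143.1 CPM untreated and 643.4 CPM treated for WT, 69.3 and 30.4 for STY, 555.7 and 662.7 for HA, 357.2 and 399.6 for 10M, and 521.8 and 740.2 for 10D. Untreated 10D and untreated HA were thus close in atf1 while their gpd1 levels were 2334 and 343.5 CPM. The part of the atf1 level in the results was not tested.

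The list of other genes of these pathways held 11, all tested. After H2O2, 5 of the 11 were called higher and 4 lower in WT than in the pool, where 21.5% of all genes were called higher and 16.4% lower. Those higher were gut2, the mitochondrial glycerol-3-phosphate dehydrogenase, by 4.96 ± 0.90 (SE) on the log2 scale, SPAC977.17, a channel protein of the MIP family, by 2.58 ± 0.38, dak2, a second dihydroxyacetone kinase, by 1.66 ± 0.45, fyu1, which makes UDP-glucose, by 1.09 ± 0.34, and tpp1, the trehalose-6-phosphate phosphatase, by 0.62 ± 0.19. Adjusted p-values in edgeR were 0.00669, 0.00340, 0.0274, 0.0430 and 0.0390 in that order. The calls of gut2 and SPAC977.17 held when any pooled strain was left out, that of dak2 was lost without HA, that of fyu1 without STY or 10M, and that of tpp1 in each case. The gut2 level was 37.6 CPM untreated and 445.2 CPM treated for WT, 4.62 and 7.20 for STY, 3.08 and 10.8 for HA, 21.4 and 23.7 for 10M, and 194.6 and 49.6 for 10D. As for gpd1, treated WT was highest and untreated 10D next.

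The 4 genes lower in treated WT encode the hexokinases, which make glucose 6-phosphate, and the aldolase and isomerase of glycolysis, which make and convert dihydroxyacetone phosphate. They were hexokinase 2 (hxk2) by -2.84 ± 0.29, fructose-bisphosphate aldolase (fba1) by -2.01 ± 0.42, triosephosphate isomerase (tpi1) by -1.80 ± 0.20 and hexokinase 1 (hxk1) by -1.37 ± 0.23 on the log2 scale, with edgeR adjusted p-values between 0.00111 and 0.0107. Of these, fba1 was not called without HA. The same 4 were called lower in treated 10D than in the pool, with pgm1, the phosphoglucomutase, at -1.18 ± 0.17 and tps3, a further trehalose-phosphate synthase, at -1.56 ± 0.42. There dak2 and SPAC977.17 were called higher, by 1.51 ± 0.45 and 1.94 ± 0.38, and over all genes 18.6% were called higher and 12.4% lower. In treated 10D, hxk2 and tpi1 alone were called whichever pooled strain was left out, and they were the only calls without HA.

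In untreated cells, fyu1 was the only one of the 11 called higher in 10D than in the pool, by 2.08 ± 0.33 (edgeR adjusted p = 0.0228), where 2.32% of all genes were called higher. By edgeR none of the 11 was called between WT and the pool, where DESeq2 called dak2 among 66 genes and gut2 was called without 10M among 42. The fyu1 call was lost without STY and without HA, while 3 of the 11 were called without 10M (gut2, fyu1 and hxk1) and 5 by DESeq2. Calls of these last 2 fits over all genes were 430 and 402. Within WT, 2 of the 11 were at least 2-fold higher after H2O2 and 3 lower, where 9.43% of all genes were higher and 6.42% lower. In 10D 7 were lower, where 7.22% of genes were, and none higher. In HA 3 and in 10M 1 were higher, where 4.11% and 2.99% of genes were, and in STY none was apart.

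**Figure D5:**
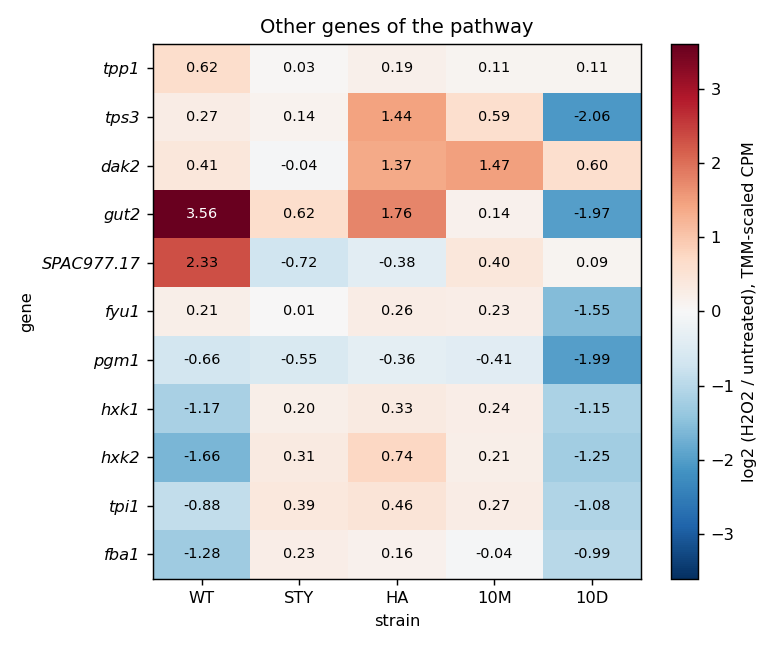
Log2 ratio of treated to untreated TMM-scaled CPM for the 11 other genes of the pathways in each strain (colour scale and printed values; 1 library per treatment). The hexokinases, tpi1 and fba1 are negative in WT and 10D, and gut2 has the highest value, in WT.

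The genes whose log2 levels were most like each member across the 10 libraries were taken by Pearson correlation, given with no test. They were SPAC9E9.15 (0.95) and SPCC417.16 (0.91) for tps1, sak1 (0.95) and pib2 (0.91) for tps2, and rtc3 (0.96) and SPAC3H8.04 (0.94) for ntp1. For gpd1 they were pdk1 (0.96) and tcb2 (0.95), and for gpd2 grn1 (0.97) and fta3 (0.95). For gld1 they were glo1 (0.95) and sod2 (0.94), for dak1 SPAC25B8.09 (0.94) and ist2 (0.93), and for tms1 the noncoding SPNCRNA.636 (0.95) and SPNCRNA.1580 (0.95). Among the members, tps1, ntp1 and gld1 had pairwise correlations of 0.81 to 0.92, whereas gpd1 and gpd2 had -0.12 and dak1 and gpd2 had -0.53. All these values share the libraries' depth and scaling.

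Whether the counting used strand is not given in the sources used here, so reads of overlapping genes on opposite strands cannot be told apart from those of the members. In the RefSeq annotation gpd1 is overlapped by the opposite-strand SPNCRNA.6409 over 1325 of 1777 bases, and ntp1 by 6 opposite-strand noncoding genes. The tms1 gene overlaps SPBC1773.04 on the opposite strand over 29 of 1229 bases, and SPBC1773.04 had 1774 to 13702 counts per library where tms1 had 274 to 4124. The gpd2 gene overlaps SPNCRNA.979, with 537 to 1925 counts, over 106 of 1698 bases.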

How the data were processed

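PolyA RNA was measured in 10 libraries, 1 for each of 5 strains and 2 treatments, grouped by the sample labels. Per the submitters' processing notes, reads were checked with FastQC, aligned with TopHat2 2.1.1 and counted with HTSeq. The authors deposited raw read counts per gene, with no normalization. The genome build and strand setting are not given in the sources used here. Of 7017 gene identifiers, 6843 matched the RefSeq ASM294v3 annotation, which supplied names, exon lengths and promoter windows.

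Counts were scaled with TMM in edgeR 4.0.16 (R 4.3.3), with factors from 0.919 to 1.10. Log2 ratios used a prior count of 2 and exact binomial 95% intervals. A count of 0 allowed up to 3 counts, or 0.120 to 0.338 CPM. Quasi-likelihood F tests followed filterByExpr, with 6097 genes in the fit of strain and treatment and 6176 in that of 6 means (WT, 10D and the pool by treatment), each with 4 residual degrees of freedom. The SE is the absolute log2 difference divided by the square root of F. Alternatives were DESeq2 1.42.0 (test or size factors), total counts, no filter, other prior counts and folds, strain as a block, and leaving out each strain.

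The members, gene lists and comparisons were chosen with earlier results of these data known, and the width of the promoter windows after the files had been seen. Named genes were all members, the listed pathway genes that passed a test, sty1, atf1 and the 2 genes most correlated with each member.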

Additional observations from a re-analysis of the deposited data

Results flagged for a closer look

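In the edgeR fit of 6 means, the H2O2 response differed between groups for 1 of the 8 genes and for 5 of the 11 other pathway genes. That fit did not pair the libraries of a strain. Over all genes it called 4.87% between the responses of 10D and the pool and 5.44% between those of WT and the pool. With strain as a block, which paired them and left 2 residual degrees of freedom, edgeR called more. For 10D against the pool it called 6 of the 8 members and 8 of the 11 others, where 853 genes were called. For WT against the pool it called 1 member, gpd1, and 6 of the 11, where 1059 genes were called. The values below are from the fit of 6 means. In 10D against the pool the log2 difference of responses was -2.83 for tps1, -2.86 for tps3, -1.55 for pgm1, -1.41 for hxk1, -1.68 for hxk2 and -1.46 for tpi1 (edgeR adjusted p from 0.0190 to 0.0496). The tps3 gene stood at 560.6 CPM without and 133.8 CPM with treatment in 10D, and at 228 ± 16.2 and 396 ± 158 CPM in the pool (SD, n = 3). In WT against the pool it was -1.43 for hxk1, -2.09 for hxk2 and -1.25 for tpi1 (edgeR adjusted p from 0.0278 to 0.0460). All 9 calls were lost without STY and without HA. Without 10M the calls of hxk1, hxk2 and tpi1 were kept in both comparisons and that of pgm1 in 10D, while tps1 and tps3 were not called.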

How the results depend on the processing

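Of 424 tests of single members under alternatives, 354 kept direction and call, 14 lost the call, 34 gained it and 22 turned direction, none of the 22 being called in either fit. Of 120 within-strain ratios of members, 98 moved by less than the distance from the middle to the end of their counting interval. None that was past 2-fold changed sign. The labels give no replicate numbers, and treated and untreated libraries were paired by strain in the fit of the shared response and with strain as a block. The tests had 4 residual degrees of freedom, but 3 when a strain was left out of the shared response and 2 when a pooled strain was left out or strain was a block. The cause of the moves below was otherwise not tested.

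With DESeq2, calls over all genes were 1141 for the shared response, 66 for WT and 402 for 10D against the untreated pool, 807 and 744 for the WT and 10D responses against that of the pool, and 79 between the 10D and WT responses. Members called by DESeq2 in the same order were 2, 1, 6, 1, 3 and 3, and 1 for treated 10D against the pool, where 2163 genes were called. With strain as a block the 3 response differences gave 1059, 853 and 107 calls over all genes and 1, 6 and 4 members. Leaving out 1 strain gave 0 to 6 calls over all genes for the shared response, and 0 members. Leaving out 1 pooled strain gave 0 to 42 for untreated WT against the pool, 716 to 2658 for treated WT, 25 to 430 for untreated 10D, 420 to 2406 for treated 10D, 0 to 650 and 0 to 485 for the WT and 10D responses against that of the pool, and 0 to 30 between the 2 responses. Members called were then 0 to 6 for untreated 10D, 0 to 3 for treated 10D, 0 to 1 for the WT response and 0 to 2 for the 10D response.

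With 1 strain left out, the shared response ran from -0.10 to 0.74 for tps1, -0.039 to 0.079 for tps2, -0.36 to 0.51 for gpd1 and -0.35 to 0.44 for gld1. In WT against the pool, dak1 ran from -0.41 to 0.16 untreated and from -0.12 to 0.37 treated, and treated tps2 from -0.00 to 0.29. Treated ntp1 in 10D against the pool ran from -0.23 to 0.28. In the WT response against that of the pool, tps2 ran from -0.21 to 0.049, gpd2 from -0.12 to 0.13 and tms1 from -0.11 to 0.041, and in the 10D response tps2 from -0.057 to 0.20. With DESeq2 size factors the shared tps2 response was 0.039 and the tms1 difference of WT -0.021, and by DESeq2's test they were 0.04 and -0.023, with 0.007 for the shared gld1 response. With strain as a block the tps2 difference of WT was 0.001.

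At 1.5-fold in place of 2-fold, members apart within a strain were 6 in WT, 2 in STY, 6 in HA and 3 in 10M, where 34.8%, 20.0%, 28.7% and 18.9% of genes were apart. At 4-fold they were 0 in HA and 2 in 10D, where 2.19% and 3.81% of genes were. Scaling by total counts left 1 in HA, where 3.29% of genes were higher.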
